A study of Mus musculus with 4 samples.

Results

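Perineuronal net and brain matrix proteins are described here through 10 genes, chosen by name and found by symbol in the count tables, where they are 10 of 23420 gene symbols. They are the lecticans *Acan*, *Bcan*, *Ncan* and *Vcan*, the link protein genes *Hapln1*, *Hapln2* and *Hapln4*, the tenascin R gene *Tnr*, the hyaluronan synthase gene *Has3*, and *Ptprz1*, which encodes a receptor tyrosine phosphatase that carries chondroitin sulfate. All 10 passed the filter on low counts and were among the 16232 genes tested.

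Perineuronal nets are lattices of extracellular matrix that wrap the cell bodies and proximal dendrites of certain neurons, in the cortex above all the fast-spiking interneurons that express parvalbumin. Long chains of hyaluronan, spun out by hyaluronan synthases in the cell membrane, form the backbone. Chondroitin sulfate proteoglycans of the lectican family hang on these chains, link proteins clamp each lectican to hyaluronan, and the trimeric glycoprotein tenascin R ties lecticans to each other at their far ends. The same proteins also make up the looser matrix between cells and at nodes of Ranvier, and nets are known for closing periods of plasticity in the maturing cortex.

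Total RNA was sequenced from PFC of C57BL6/J mice, with 2 control samples labelled as GFP-AAV9 injected and 2 samples labelled as shRNA_ASH1L-AAV9 injected, called *Ash1L* shRNA here. The methods of the study describe a GFP-tagged AAV for the hairpin. They call the control virus scrambled shRNA where the labels name GFP. The hairpin was driven by the U6 promoter, which is active in most cell types, and every sample was a pool of PFC from 3 mice by the methods, while the series description counts single mice. The methods give an age at injection of 5 weeks and the series description an age of 6 to 8 weeks. Counts summed to between 14251190 and 35764874 per sample, with control sample 1 the shallowest. Markers of excitatory cortical neurons were present in every sample, and none of the markers in the 8 cell type lists used below was at 0 in any sample. *Ash1l*, the targeted gene, had levels of 245.0 and 290.1 CPM (TMM-scaled counts divided by the library total, times 1000000) in the control samples and of 215.6 and 137.5 CPM in *Ash1L* shRNA samples 1 and 2. The fitted log2 difference was -0.60, with a standard error (SE) of 0.22, an unadjusted P of 0.0362 and an adjusted p of 0.275 (quasi-likelihood test of edgeR). DESeq2 gave an unadjusted P of 0.00858 and an adjusted p of 0.143. The study also reported lower *Ash1L* mRNA and protein by qPCR and Western blot. The log2 difference was -0.71 without control sample 1, -0.48 without control sample 2, -0.97 without *Ash1L* shRNA sample 1 and -0.31 without *Ash1L* shRNA sample 2. Of these fits, only the one without *Ash1L* shRNA sample 1 kept the unadjusted P under 0.05. The fall was thus larger in *Ash1L* shRNA sample 2, and so were several of the differences below.

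To find out how the genes of the net compare between *Ash1L* shRNA and control PFC, each gene was tested in a fit across all genes. TMM scaling makes samples of different depth comparable. A gene was called UP or DOWN at an unadjusted P under 0.05 and at least a 1.2-fold change, and the adjusted p is the Benjamini-Hochberg value over all genes tested. The only member called was *Vcan*, which rose 1.71-fold, and 0 of 10 were DOWN in edgeR's quasi-likelihood test. Over all genes tested, 8.61% were UP and 8.28% were DOWN, so that 1 UP gene in 10 is near the background. No member passed an adjusted p of 0.05 in this test, where 1 of the 10 had an unadjusted P under 0.05, while 1 member, *Vcan*, passed with each of DESeq2 and the likelihood ratio test of edgeR. Of all genes tested, 0.00616% passed that adjusted limit in the quasi-likelihood test, 2.52% of those given an adjusted p in DESeq2, and 2.95% in the likelihood ratio test. The median of the 10 log2 differences was -0.10, with 8 below 0, against a median of -0.003 and 50.3% below 0 over all genes tested. Among those 8, *Ncan*, *Hapln2*, *Hapln4*, *Tnr* and *Ptprz1* lay between -0.10 and -0.07, each nearer to 0 than its SE.

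**Figure D1:**
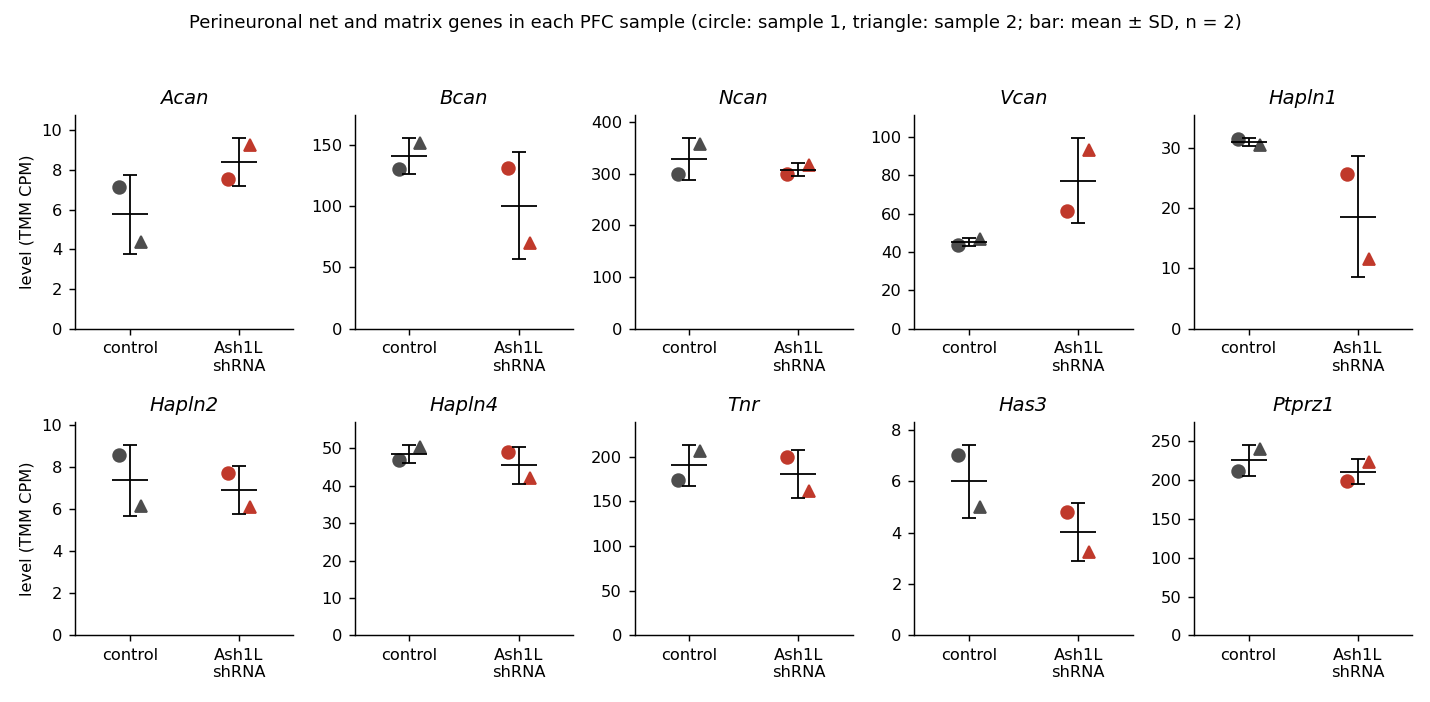
Level of each of the 10 genes in every PFC sample, in CPM after TMM scaling on axes that start at 0, with grey control and red *Ash1L* shRNA samples (circle, sample 1, and triangle, sample 2) and bars for mean ± SD (n = 2). *Vcan* lies at 61.4 and 93.0 CPM in the *Ash1L* shRNA samples, above both controls, while *Hapln1* lies below both and *Ncan*, *Hapln4*, *Tnr* and *Ptprz1* overlap.

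Lecticans share an amino-terminal domain that binds hyaluronan and a carboxy-terminal domain that binds tenascin R, and they differ in the length of the stretch between these domains that carries the sugar chains. *Vcan* encodes versican, which is made by oligodendrocyte precursors and other glia and is prominent in the young and the injured brain. The gene (ENSMUSG00000021614) lies on the minus strand of mm10 at chr13:89655312-89742509 and has 14462 exonic bases, so reads of its long and short isoforms are summed in 1 count. Control samples 1 and 2 had 616 and 1638 counts of *Vcan*, and *Ash1L* shRNA samples 1 and 2 had 1682 and 1927. Scaled, these were levels of 43.6 and 46.7 CPM in control against 61.4 and 93.0 CPM in *Ash1L* shRNA samples. The controls lay close together, both *Ash1L* shRNA samples were above them, and the samples of the latter group stood far apart. The means were 45.2 ± 2.16 CPM in control and 77.2 ± 22.3 CPM in *Ash1L* shRNA samples (SD, n = 2 each). The log2 difference was 0.77 (SE 0.20), at an unadjusted P of 0.00851 and an adjusted p of 0.255 (quasi-likelihood test of edgeR). DESeq2 gave an adjusted p of 0.0397 and the likelihood ratio test of edgeR one of 0.0427, and without control sample 1 the P of the quasi-likelihood test rose to 0.0566, which ends the call. Without *Ash1L* shRNA sample 2 the log2 fold change was 0.44, and *Vcan* was still called, at an unadjusted P of 0.0102 (edgeR's quasi-likelihood test).

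*Acan* encodes aggrecan, the lectican most used to mark mature nets, and was the least abundant of the 4 (ENSMUSG00000030607, chr7:79053483-79115099, plus strand). It had between 101 and 207 counts per sample, for which counting error alone is 6.95% to 9.95%. Its level was 7.16 and 4.36 CPM in control samples 1 and 2 and 7.56 and 9.26 CPM in *Ash1L* shRNA samples 1 and 2. Both *Ash1L* shRNA samples were thus higher, with sample 1 barely above control sample 1, and the log2 difference of 0.57 had an SE of 0.30, an unadjusted P of 0.105 and an adjusted p of 0.371 (quasi-likelihood test of edgeR). Leaving out control sample 1 raised this value to 0.96, with a P of 0.0401, and leaving out control sample 2 lowered it to 0.23 with a P of 0.530 (edgeR's quasi-likelihood test), so the size of the difference depends on which control is used.

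*Bcan* encodes brevican, a short lectican of glia and of the perisynaptic matrix (ENSMUSG00000004892, chr3:87987531-88000230, minus strand). *Bcan* had levels of 130.5 and 151.7 CPM in the control samples, 131.4 CPM in *Ash1L* shRNA sample 1 and 69.8 CPM in sample 2. Sample 1 lay between the controls and only sample 2 stood below them, so the groups overlapped and the log2 difference of -0.49 had an SE of 0.29, an unadjusted P of 0.150 and an adjusted p of 0.427 (quasi-likelihood test of edgeR). The value was -1.02 without *Ash1L* shRNA sample 1, where *Bcan* was called DOWN, and -0.10 without sample 2. *Ncan* encodes neurocan, which astrocytes and neurons secrete (ENSMUSG00000002341, chr8:70093085-70120873, minus strand). Its level was 299.2 and 357.5 CPM in the control samples and 298.4 and 316.5 CPM in *Ash1L* shRNA samples. The groups overlapped, and the log2 difference of -0.10 (SE 0.13) turned to 0.03 without control sample 2.

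The stretches of genome just before the starts of the 4 lectican genes are given here because these related genes differed in how they compared between the groups. They are RefSeq sequences of GRCm38.p6, up to 250 bases upstream of the annotated start on the gene's own strand, with bases inside any GENCODE exon removed. Capitals mark matches to GGGCGG (the GC box) or CCAAT, on either strand.
*Vcan*, chr13:89742513-89742762, minus strand: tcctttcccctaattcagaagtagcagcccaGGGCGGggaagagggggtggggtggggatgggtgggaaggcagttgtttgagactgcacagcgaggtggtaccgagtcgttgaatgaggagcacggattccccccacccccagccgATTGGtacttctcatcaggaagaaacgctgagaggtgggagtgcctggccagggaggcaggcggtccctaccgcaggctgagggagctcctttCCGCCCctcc
*Acan*, chr7:79052976-79053225, plus strand: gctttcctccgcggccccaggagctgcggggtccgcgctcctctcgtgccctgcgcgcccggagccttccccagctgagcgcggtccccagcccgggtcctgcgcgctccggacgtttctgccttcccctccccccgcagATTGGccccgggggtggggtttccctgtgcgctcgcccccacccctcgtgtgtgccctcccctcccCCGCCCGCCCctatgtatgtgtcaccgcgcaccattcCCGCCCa
*Bcan*, chr3:88000357-88000606, minus strand: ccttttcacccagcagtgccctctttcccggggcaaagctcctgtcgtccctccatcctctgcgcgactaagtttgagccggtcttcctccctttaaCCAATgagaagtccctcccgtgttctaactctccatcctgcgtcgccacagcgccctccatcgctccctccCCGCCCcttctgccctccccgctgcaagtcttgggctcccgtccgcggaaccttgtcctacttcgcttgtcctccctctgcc
*Ncan*, chr8:70120874-70121094, minus strand: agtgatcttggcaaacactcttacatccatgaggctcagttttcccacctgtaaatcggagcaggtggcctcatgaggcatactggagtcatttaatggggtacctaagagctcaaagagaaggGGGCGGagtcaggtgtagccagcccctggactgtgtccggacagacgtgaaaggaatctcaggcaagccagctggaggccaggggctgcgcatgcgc
Over the printed bases, GGGCGG matched 3 times before *Acan*, 2 times before *Vcan* and 1 time each before *Bcan* and *Ncan*, with 2 of the *Acan* matches overlapping. CCAAT matched 1 time each before *Acan*, *Bcan* and *Vcan*. Among the 32851 RefSeq windows of 250 bases, 32.7% held GGGCGG and 33.8% held CCAAT. The letters CACGTG (6.02% of all windows), TGANTCA (6.75%) and TATAAA (12.4%) were not found in the 4 printed stretches. G and C made up 74.4% of the stretch before *Acan*, 62.4% before *Vcan*, 62.0% before *Bcan* and 55.7% before *Ncan*, and the median window held 52.4%. RefSeq windows were matched for 8 of the 10 genes.

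To compare the lecticans with each other, counts were divided by exonic length in each sample and expressed as a share of the 4 genes. *Vcan* made up 3.88% and 3.56% of this sum in control samples 1 and 2 and 5.37% and 9.34% in *Ash1L* shRNA samples 1 and 2. The share was higher in both *Ash1L* shRNA samples, as the level of *Vcan* was, by 3.64 percentage points on average. In level, 26.5% of all genes tested had both *Ash1L* shRNA samples above both controls. *Bcan* held 41.3% and 41.1% in the controls, a nearly equal 40.9% in *Ash1L* shRNA sample 1 and 24.9% in sample 2. *Ncan* held the largest share in every sample, from 52.4% to 63.9%, and *Acan* the smallest, from 0.643% to 1.80%. With 2 samples in each group, the smallest two-sided p of an exact permutation test is 0.33, and this was the value for the shares of *Vcan*, *Bcan* and *Acan* while *Ncan* had a p of 1.0. As a share of raw counts, *Vcan* took 9.08% (95% exact binomial interval 8.41% to 9.79%) and 8.34% (7.95% to 8.73%) in the controls, 12.3% (11.8% to 12.9%) in *Ash1L* shRNA sample 1 and 19.0% (18.3% to 19.8%) in sample 2. These intervals cover counting error only, and those of the *Ash1L* shRNA samples lay above both of the control samples. The summed level of the 4 lecticans was 480.5 and 560.2 CPM in control and 498.8 and 488.5 CPM in *Ash1L* shRNA samples, with overlapping groups.

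**Figure D2:**
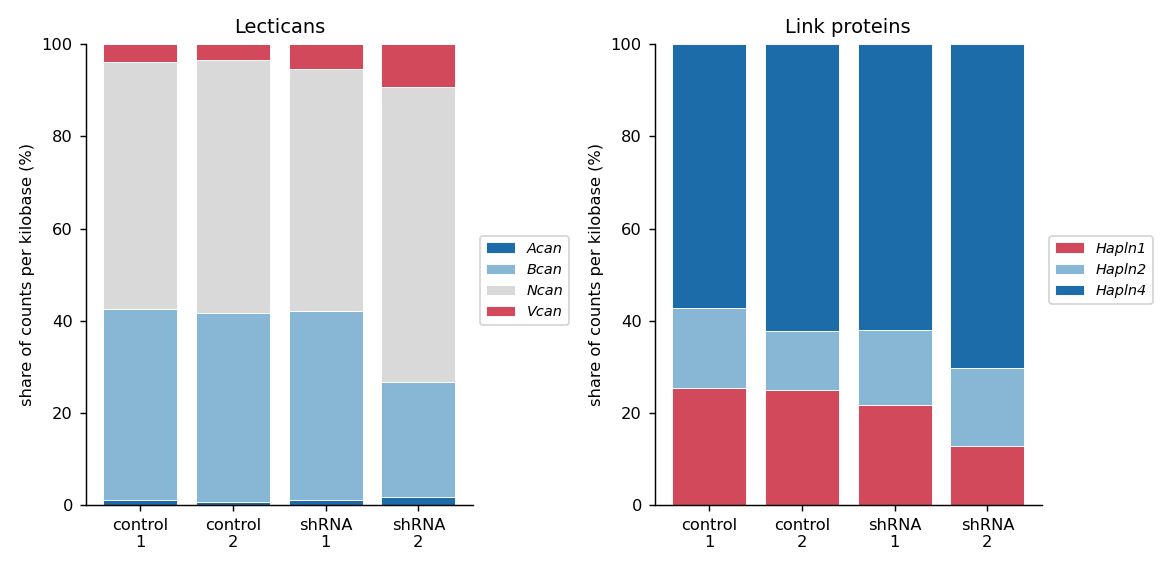
Makeup of the lecticans (left) and of the link proteins (right) in each PFC sample, as a percentage of the family's summed counts per kilobase of exonic sequence. *Vcan* takes 9.34% and *Hapln1* 12.8% of its family in *Ash1L* shRNA sample 2, against at most 3.88% and at least 25.1% in the control samples.

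Link proteins have domains that bind hyaluronan and the lectican head at once, and without them nets lose their compact form. *Hapln1* (ENSMUSG00000021613, chr13:89539796-89611652, plus strand) encodes the link protein of cartilage and brain, which neurons with nets make. There were 444 and 1068 *Hapln1* counts in the controls and 704 and 238 in *Ash1L* shRNA samples 1 and 2, at levels of 31.5, 30.4, 25.7 and 11.5 CPM in the same order. Both *Ash1L* shRNA samples were below both controls, which were nearly equal, and sample 2 was much the lower. The means were 31.0 ± 0.713 CPM in control and 18.6 ± 10.1 CPM in *Ash1L* shRNA samples (SD, n = 2 each). The log2 difference was -0.73 (SE 0.36), at an unadjusted P of 0.0903 and an adjusted p of 0.352 (quasi-likelihood test of edgeR). The gene was therefore not called DOWN by this test, whereas DESeq2 gave a P of 0.0305 and called it, with an adjusted p of 0.265. Without *Ash1L* shRNA sample 1 the value was -1.43 and the gene was DOWN, and without sample 2 it was -0.26 with a P of 0.119 (edgeR's quasi-likelihood test).

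*Hapln4* encodes brain link protein 2, which is needed for brevican to accumulate around inhibitory synapses, and *Hapln2* encodes the link protein of nodes of Ranvier in myelinated axons. *Hapln4* had levels of 46.8 and 50.3 CPM in control and 48.9 and 42.0 CPM in *Ash1L* shRNA samples, a log2 difference of -0.10 (SE 0.13). *Hapln2* had 8.57 and 6.16 CPM in control and 7.74 and 6.13 CPM in *Ash1L* shRNA samples, a log2 difference of -0.07 (SE 0.27). Neither separated the groups. On mm10 *Hapln4* (ENSMUSG00000007594) lies at chr8:70083457-70090862 on the plus strand and *Hapln2* (ENSMUSG00000004894) at chr3:88021750-88027583 on the minus strand. With *Ash1L* shRNA sample 2 left out, the value was 0.01 for *Hapln4* and 0.10 for *Hapln2*, and with control sample 1 left out *Hapln2* was at 0.18. Mature oligodendrocytes make *Hapln2*, and of their 10 listed markers 0 were UP and 2 were DOWN, with a summed level of 2738 to 3122 CPM in control and 2575 to 2918 CPM in *Ash1L* shRNA samples. Per length, *Hapln1* made up 25.5% and 25.1% of the 3 link proteins in the control samples and 21.7% and 12.8% in *Ash1L* shRNA samples 1 and 2. The groups did not overlap, as held for the level of *Hapln1* itself, and the mean share was lower by 8.07 percentage points (exact permutation p = 0.33). In level, 26.8% of all genes tested had both *Ash1L* shRNA samples below both controls. *Hapln4* was the most abundant link protein per length in all 4 samples, with shares of 57.2% to 70.3%.

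Each lectican gene of the mouse has a link protein gene beside it, with 0 coding genes between them. *Vcan* and *Hapln1* lie 43659 bases apart on chromosome 13 with their 3′ ends facing, *Bcan* and *Hapln2* are 21519 bases apart on chromosome 3, *Ncan* and *Hapln4* are 2222 bases apart on chromosome 8, and *Acan* and *Hapln3* are 2 bases apart on chromosome 7. The ratio of raw counts of such neighbours within a sample does not depend on how samples are scaled. *Vcan* had 1.39 and 1.53 times the counts of *Hapln1* in control samples 1 and 2, but 2.39 and 8.10 times in *Ash1L* shRNA samples 1 and 2. The ratio was thus higher in both *Ash1L* shRNA samples, by 1.59 on the log2 scale on average (exact permutation p = 0.33). It had to be, since *Vcan* alone had both of these samples above both controls and *Hapln1* alone had both below. The ratio therefore restates those differences and is no further result. For *Ncan* over *Hapln4* the ratio was 6.39 and 7.11 in control and 6.10 and 7.54 in *Ash1L* shRNA samples, a log2 difference of 0.01. For *Bcan* over *Hapln2* it was 15.2, 24.6, 17.0 and 11.4 in the same order. For *Acan* over *Hapln3*, which had only 8 to 24 counts per sample, it was 12.6, 6.95, 8.62 and 16. In these 3 pairs the groups overlapped. Reads that cross from 1 gene into the next cannot be told apart for *Acan* and *Hapln3*, which end 2 bases from each other on opposite strands, since the strand setting of the counting is not given in the sources used here.

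**Figure D3:**
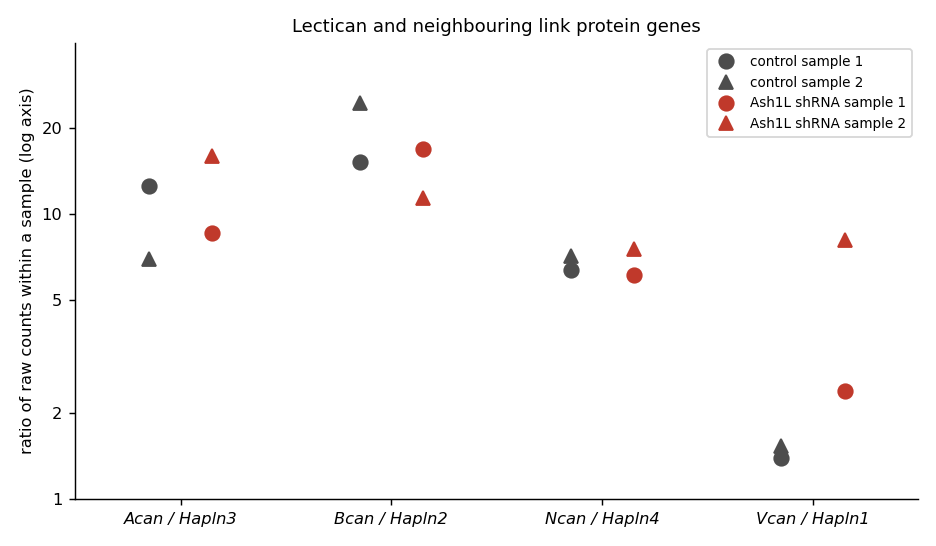
Ratio of raw counts of each lectican gene to its neighbouring link protein gene within each PFC sample, on a log axis (grey, control, and red, *Ash1L* shRNA, with circles for sample 1 and triangles for sample 2). Only for *Vcan* over *Hapln1*, among these 4 pairs, do both *Ash1L* shRNA samples (2.39 and 8.10) lie above both controls (1.39 and 1.53). This follows from the levels of these genes, each of which separated the groups by itself.

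*Tnr* (ENSMUSG00000015829, chr1:159523769-159931729, plus strand) encodes tenascin R, made by oligodendrocyte lineage cells and some interneurons. The gene had levels of 173.6 and 206.6 CPM in control and 199.9 and 161.8 CPM in *Ash1L* shRNA samples. The groups overlapped, with a log2 difference of -0.07 and a standard error of 0.15 that changed sign to 0.06 without control sample 2 and to 0.07 without *Ash1L* shRNA sample 2. *Ptprz1* (ENSMUSG00000068748, chr6:22875502-23052916, plus strand) encodes a receptor phosphatase of glia and their precursors, whose secreted ectodomain, phosphacan, binds tenascin R and contactin 1. It had 211.2 and 239.7 CPM in control and 199.1 and 222.7 CPM in *Ash1L* shRNA samples, a log2 difference of -0.10 (SE 0.13). *Tnr* and *Ptprz1* had 2451 or more counts in every sample, so counting error was at most 2.02%. The standard error rests on the spread between samples of a group, which the fit moderates across genes.

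*Has3* (ENSMUSG00000031910, chr8:106870242-106884566, plus strand) encodes a synthase that makes hyaluronan chains, and it was measured at low counts of 99 and 175 in control and 132 and 67 in *Ash1L* shRNA samples. Its levels were 7.01 and 4.99 CPM in control and 4.82 and 3.23 CPM in *Ash1L* shRNA samples 1 and 2. Both *Ash1L* shRNA samples were lower, with sample 1 just under control sample 2, and the log2 difference of -0.56 had an SE of 0.32, an unadjusted P of 0.132 and an adjusted p of 0.407 (quasi-likelihood test of edgeR). The value was -0.30 without control sample 1, -0.29 without *Ash1L* shRNA sample 2 and -0.88 without *Ash1L* shRNA sample 1, where *Has3* was called DOWN. *Has3* shares 352 exonic bases with *Chtf8* on the opposite strand, and *Chtf8* had a log2 difference of -0.60 (SE 0.26). How reads in the shared bases were assigned depends on counting settings that are not given in the sources used here. The part of *Chtf8* reads in the *Has3* count was not tested. Of the 10 genes, *Vcan* and *Acan* had both *Ash1L* shRNA samples above both controls, as did 26.5% of all genes tested, and *Hapln1* and *Has3* had both below, as did 26.8% of all genes tested. The other 6 overlapped.

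**Figure D4:**
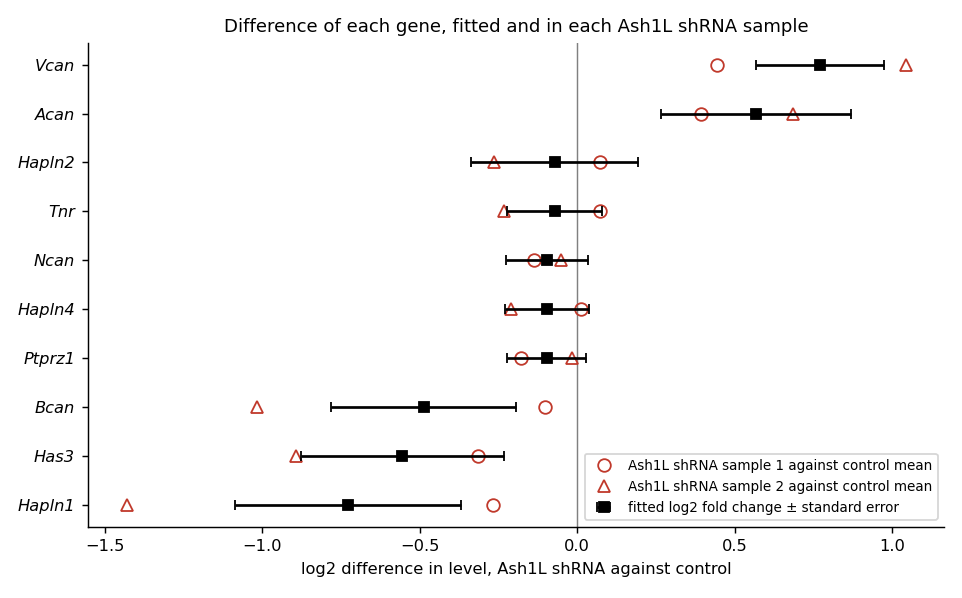
Fitted log2 fold change of each gene with its standard error (black squares and bars), and the log2 difference of each *Ash1L* shRNA sample from the control mean (open red circle, sample 1, and triangle, sample 2). For *Vcan*, *Bcan*, *Has3* and *Hapln1* sample 2 lies farther from the control mean than sample 1, at 1.04, -1.02, -0.89 and -1.43.

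The genes with the widest differences lay farther from control in *Ash1L* shRNA sample 2. Against the control mean, *Vcan* was higher by 0.44 in sample 1 and 1.04 in sample 2 on the log2 scale, and *Acan* by 0.39 and 0.69. *Hapln1* had differences of -0.27 and -1.43, *Bcan* of -0.10 and -1.02, and *Has3* of -0.32 and -0.89. *Ncan* and *Ptprz1* lay within 0.18 of the control mean in both samples, at -0.14 and -0.05 and at -0.18 and -0.02. With *Ash1L* shRNA sample 1 left out, 3 members were DOWN, namely *Bcan*, *Hapln1* and *Has3*, and 3 members passed an adjusted p of 0.05, namely *Vcan*, *Bcan* and *Hapln1*. Over all genes tested, this setting called 16.5% DOWN and passed 15.2%, so these shares were higher over all genes too. A single sample then stood for its group and was taken to vary like the controls. With sample 2 left out, the log2 fold change was 0.44 for *Vcan*, 0.43 for *Acan*, -0.10 for *Bcan*, -0.26 for *Hapln1* and -0.29 for *Has3*.

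Compared per kilobase of exonic sequence, the genes spanned a wide range of levels in control PFC. *Ncan* was highest, at 45.6 ± 5.72 CPM per kilobase, followed by *Bcan* at 34.7 ± 3.68, *Ptprz1* at 15.8 ± 1.41, *Tnr* at 14.8 ± 1.81 and *Hapln4* at 12.4 ± 0.624 (SD, n = 2 each). *Hapln1* was at 5.24 ± 0.121 CPM per kilobase, *Vcan* at 3.12 ± 0.149, *Hapln2* at 3.11 ± 0.720, *Has3* at 0.941 ± 0.224 and *Acan* at 0.771 ± 0.265. In this order *Ptprz1* and *Tnr*, *Vcan* and *Hapln2*, and *Has3* and *Acan* overlapped, while the other neighbours did not. In *Ash1L* shRNA samples the first 5 places were the same. *Vcan* was then sixth with a level of 5.34 ± 1.54 CPM per kilobase and *Hapln1* seventh with 3.15 ± 1.70, and their values overlapped.

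To place these genes among others of the matrix, 9 lists of pathway genes were examined, with 92 of 95 genes tested. *Chst13* and *Otx2* fell under the filter on low counts, and *Cemip* was not analysed here. Of the 92 genes, *Mmp3* included, 7 were DOWN (7.61%) and 8 were UP (8.70%), close to the shares of 8.28% and 8.61% over all genes, and 0 passed an adjusted p of 0.05 in edgeR's quasi-likelihood test. Their median log2 fold change was 0.03. These counts fell to 1 DOWN and 3 UP without control sample 2 and to 3 and 4 without control sample 1, and went up to 17 and 21 without *Ash1L* shRNA sample 1. The shares over all genes went the same way, to 1.86% DOWN and 2.57% UP, to 4.14% and 5.07%, and to 16.5% and 14.4%.

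Of 12 genes for matrix proteases, which include enzymes that cut lecticans, 3 were UP, 0 were DOWN and 9 were neither, where 8.61% of all genes were UP. Among the 3 was *Mmp3*, which reached the count filter in the *Ash1L* shRNA samples alone and therefore had to differ. Without it, 2 of 11 were UP, with a median of 0.14. *Adamts1*, which encodes a secreted protease that cleaves aggrecan and versican, had levels of 18.8 and 15.9 CPM in control and 44.9 and 159.6 CPM in *Ash1L* shRNA samples, a log2 difference of 2.56 (SE 0.65). Both *Ash1L* shRNA samples were far above the controls, and sample 2 was by far the higher. *Adamts5*, for another aggrecan-cleaving protease, had a log2 difference of 0.95 (SE 0.29). *Mmp3*, for the metalloprotease stromelysin 1, had 2 and 1 counts in control and 75 and 41 in *Ash1L* shRNA samples, a ratio of 39.5 after scaling with an exact 95% counting interval of 13.2 to 194.0. For *Adamts1* and *Adamts5* the adjusted p was 0.260 (edgeR's quasi-likelihood test). *Adamts4*, the other main brevican-cleaving protease, had 23.1 and 22.9 CPM in control and 27.9 and 22.6 CPM in *Ash1L* shRNA samples, and *Mmp24*, the most abundant of the list in the control samples, had a log2 difference of 0.03. *Adamts4* is named for this role after its values were seen. Of the 5 protease inhibitor genes, 0 were UP or DOWN, with *Timp2* at a log2 difference of 0.20 and *Timp3* at 0.03.

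Most genes for enzymes that build and sulfate chondroitin chains were not called, as held for most genes tested. The counts for these and the pathway lists that follow stand beside shares of 8.28% DOWN and 8.61% UP over all genes tested. Of 14 chain synthesis genes, 2 were DOWN and 12 were neither, with a median of -0.03. The DOWN genes were *Xylt1*, which starts the chain on the core protein, with a log2 difference of -0.36 (SE 0.14), and *B3gat3*, which completes the linker sugar, with -0.52 (SE 0.19). *Fam20b* and *Chpf2*, which have the highest mean over all 4 samples in the list, had log2 differences of -0.04 and 0.10. Of the 7 sulfotransferase genes tested, *Chst15* was DOWN at -0.52 (SE 0.17) and 6 were neither. *Chst11*, the most abundant, had a log2 difference of 0.44 (SE 0.20), and the median was 0.44.

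Of 11 genes for hyaluronan synthesis, turnover and binding, 1 was DOWN, namely *Habp4* at a log2 difference of -0.33, whose product binds hyaluronan and RNA inside cells. The other 10 were neither, and the median was 0.49. That median is the value of *Lyve1*, which had 7 to 28 counts per sample. Against the control mean, *Lyve1* lay at -0.06 in *Ash1L* shRNA sample 1 and at 1.01 in sample 2 on the log2 scale. *Tmem2*, for a cell-surface hyaluronidase, had a log2 difference of 0.03. The upper end of the list was *Cd44*, the hyaluronan receptor, with 10.6, 11.5 and 12.05 CPM in the controls and *Ash1L* shRNA sample 1 and 46.3 CPM in sample 2. Of the 4 other tenascin and link protein genes, *Tnxb* was UP at a log2 difference of 0.86 (SE 0.31), and *Tnc* had 6.30 and 17.2 CPM in control and 10.04 and 64.4 CPM in *Ash1L* shRNA samples. *Tnc*, like *Cd44*, was far above the other samples in sample 2 alone, and neither was called.

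Of 9 genes for receptors of chondroitin sulfate and tenascin R, 1 was DOWN and 8 were neither, with a median of -0.09. *Rtn4r*, the Nogo receptor gene, had a log2 difference of -0.71 (SE 0.25), while *Ptprs* was at -0.09 and *Cntn1*, for a tenascin R and *Ptprz1* partner, at -0.36 with an unadjusted P of 0.0521 (edgeR's quasi-likelihood test). Of the 7 genes tested for proteins held in or bound by nets, 3 were UP and 4 were neither. *Nptx2*, for a pentraxin that neurons secrete with activity and that gathers AMPA receptors on parvalbumin cells, had 103.1 and 62.3 CPM in control and 192.0 and 347.9 CPM in *Ash1L* shRNA samples, a log2 difference of 1.71 (SE 0.37). *Sema3a*, for a guidance protein that binds the sugar chains of nets, had a log2 difference of 0.54 (SE 0.21), and *Crtac1* one of 0.32 (SE 0.12). *Nptx1* and *Ptn*, the most abundant of the list, had log2 differences of 0.03 and -0.31. Among 23 other proteoglycan core protein genes, *Gpc5* and *Cspg5* were DOWN at log2 differences of -0.48 and -0.65, *Lum* was UP at 0.72, and 20 were neither, with *Spock2* at -0.11 and *Spock1* at -0.07. *Cspg5* encodes neuroglycan C, another brain chondroitin sulfate proteoglycan. Outside the protease list, called genes had an adjusted p of 0.253 to 0.288 (edgeR's quasi-likelihood test).

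**Figure D5:**
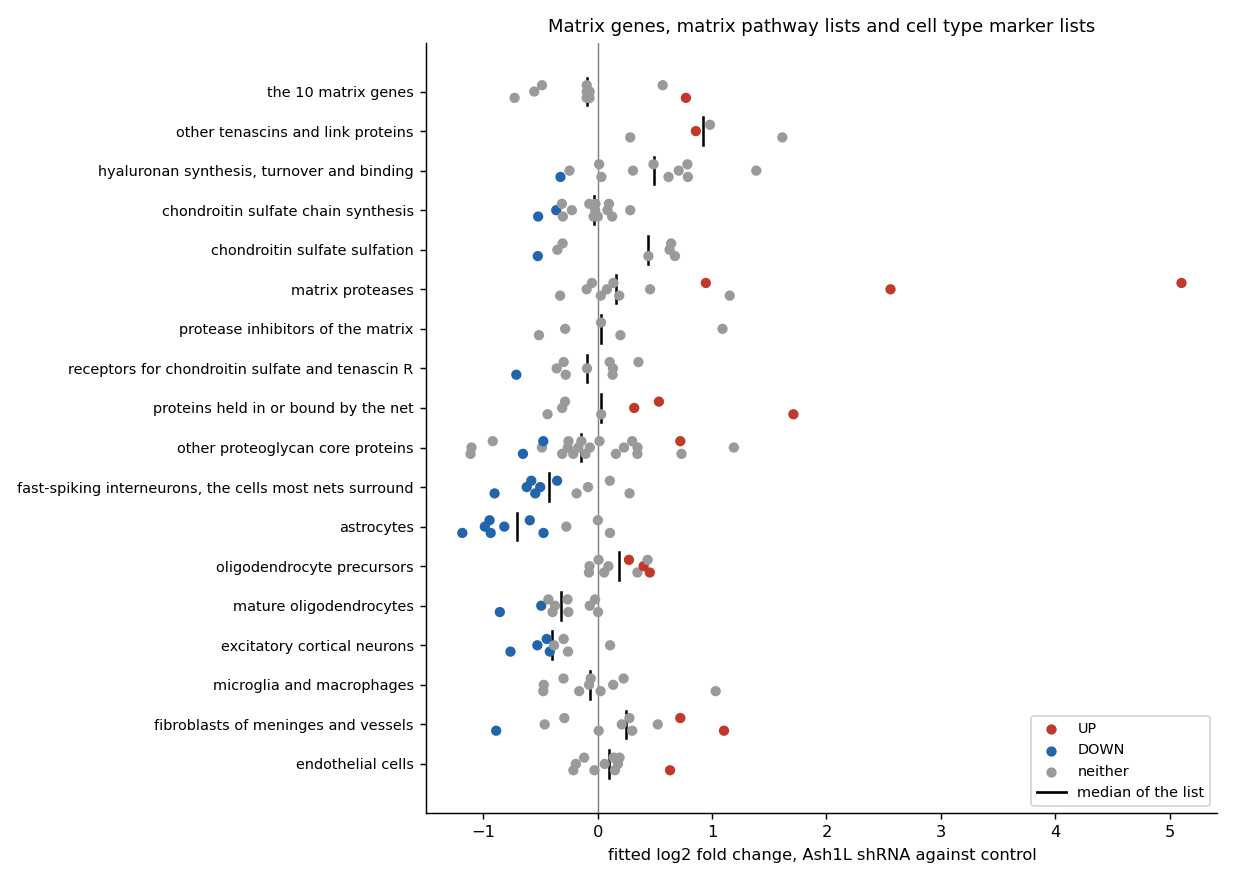
Fitted log2 differences of the 10 matrix genes, of 9 matrix pathway lists and of 8 cell type marker lists, with 1 point for each tested gene (red, UP, blue, DOWN, and grey, neither) and a black bar at the median of each list. The point farthest right is *Mmp3*, whose fitted value rests on 3 control counts in all and is no measured fold, and 7 of 10 astrocyte and 6 of 10 fast-spiking interneuron markers are blue.

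In bulk tissue, fewer cells of a type and less RNA per cell cannot be told apart. By NeuN staining, which was not split by neuron type, the study found no significant loss of PFC neurons. By qPCR it found lower *Pvalb* mRNA. Of the 78 markers tested in the 8 cell type lists, 26 had an unadjusted P under 0.05 and 0 passed an adjusted p of 0.05 in edgeR's quasi-likelihood test. The counts of called markers that follow stand beside shares of 8.28% DOWN and 8.61% UP over all genes tested. Of 10 genes listed for fast-spiking interneurons, the cells most nets surround, 6 were DOWN and 0 were UP, with a median log2 difference of -0.43. *Pvalb*, the lowest of the list, had 43.1 and 32.5 CPM in control and 23.6 and 16.6 CPM in *Ash1L* shRNA samples. The genes for GABA synthesis and loading that all inhibitory neurons share were not called, with log2 differences of -0.19 for *Gad1*, 0.28 for *Gad2* and 0.11 for *Slc32a1*. The summed level of the list was 831.6 to 887.9 CPM in control and 725.9 to 739.6 CPM in *Ash1L* shRNA samples. Of 10 astrocyte markers, 7 were DOWN and 0 were UP, with a median of -0.71 and a summed level of 5622 to 5918 CPM in control against 3340 to 4520 CPM in *Ash1L* shRNA samples. *Ncan*, which astrocytes and neurons secrete, differed by -0.10 and *Bcan*, a lectican of glia, by -0.49, and neither was called. The part of these cell types in the values of *Hapln1*, *Bcan*, *Ncan*, *Acan* and *Has3* was not tested.

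Markers of oligodendrocyte precursors, which express *Vcan*, *Ptprz1* and *Tnr*, were UP for 3 of 10 genes and DOWN for 0, with a median log2 difference of 0.18. Their summed level was 281.0 to 290.6 CPM in control, 372.3 CPM in *Ash1L* shRNA sample 1 and 280.5 CPM in sample 2. *Pdgfra*, the receptor that defines these precursors, had a log2 difference of 0.27 (SE 0.11). Within the list, *Pdgfra* had 88.5 and 82.3 CPM in control and 99.5 and 106.8 CPM in *Ash1L* shRNA samples 1 and 2, and *Cspg4* had 26.2, 30.4, 32.6 and 39.6 CPM in the same order. Both were highest in sample 2, as *Vcan* was. Every other marker of the list was highest in sample 1, such as *Olig1* at 45.6 CPM against 33.7 CPM in sample 2. Among these, *Gpr17*, which marks precursors about to differentiate, had 66.7, 68.9, 102.0 and 26.7 CPM and carried much of the summed level of sample 1. Of 10 fibroblast markers, 2 were UP and 1 was DOWN, with 145.4 to 213.5 CPM in control and 211.9 to 216.8 CPM in *Ash1L* shRNA samples. Of 10 endothelial markers, 1 was UP and 0 were DOWN, at 300.4 to 335.2 CPM in control and 319.1 to 346.4 CPM in *Ash1L* shRNA samples. Microglia and macrophage markers were UP or DOWN for 0 of 10 genes, and their summed level was 895.4 to 920.6 CPM in control, 1208 CPM in *Ash1L* shRNA sample 1 and 482.1 CPM in sample 2. Of 8 excitatory neuron markers, 4 were DOWN and 0 were UP, with 2533 to 2997 CPM in control and 1945 to 2315 CPM in *Ash1L* shRNA samples. The part of these cell types in the rise of *Vcan* was not tested.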

How the data were processed

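The authors aligned paired-end reads of rRNA-depleted, stranded libraries to mm10 with RNA STAR (Galaxy version 2.7.5b) and counted them with featureCounts (1.6.4), and deposited raw counts per gene symbol for 4 samples. The labels name other trimming and alignment tools. The counts are whole numbers with no scaling, and the strand setting of the counting is not given in the sources used here. Samples of a group differed beyond counting error (chi-square per degree of freedom 14.8 and 42.3), and p-values measure only the spread between these pools. Genes were filtered with filterByExpr, scaled with TMM and fitted with robust glmQLFit in edgeR 4.0.16, *Ash1L* shRNA against control. Standard errors were log2 fold changes over √F. Lengths and coordinates came from GENCODE vM21 and upstream sequence from RefSeq. Same-numbered samples are not stated to be paired, and their deviations correlated at -0.151. The fits were tested on simulated data. Alternatives were DESeq2 1.42.0, the likelihood ratio test, other scalings and filters, a replicate block, a 1.5-fold limit, other lengths and each sample left out. Named genes were the members, called genes of each pathway list (at most 4) and its 2 most abundant, and 2 abundant markers of each cell type, of which only some are printed. Members, lists and rules were chosen with earlier results of these data known.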

Additional observations from a re-analysis of the deposited data

How the results depend on the processing

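With all 4 samples kept, *Vcan* had log2 fold changes from 0.74 to 0.82 over the alternatives and stayed UP, and the direction of every member held. Members DOWN numbered 1 with DESeq2 and 1 with the replicate block (*Hapln1*, at -0.84 with the block), against 0 in the fit reported, and the block moved no other member across the limits. The share DOWN over all genes tested was 6.35% with DESeq2 and 6.28% with the block, against 8.28% in the fit reported. Members past the adjusted limit numbered 1 with DESeq2 and 1 with the likelihood ratio test. With the crossed pairing, added after the correlation of same-numbered samples was seen, 2 members were DOWN, 2 were UP and 13 pathway genes were DOWN. This setting called 10.7% of all genes tested DOWN and 9.49% UP. A 1.5-fold limit left 2 pathway genes DOWN. The *Vcan* share difference was 6.96 percentage points without length scaling. With each sample left out in turn, members DOWN ran from 0 to 3, members past the adjusted limit from 0 to 3, pathway genes DOWN from 1 to 17 and UP from 3 to 21, and the log2 fold change of *Ash1l* from -0.97 to -0.31. Members UP stayed at 1, which without control sample 1 was *Acan* and not *Vcan*. Ranges that changed sign were -0.208 to 0.034 for *Ncan*, -0.308 to 0.182 for *Hapln2*, -0.217 to 0.011 for *Hapln4* and -0.239 to 0.073 for *Tnr*. The cause of these changes was not tested. Counting error reached 12.2% in a sample for *Has3*, 9.95% for *Acan* and 9.09% for *Hapln2*.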
